A study of Mus musculus with 22 samples.

Results

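Gene expression in the lung epithelium of 6-month-old mice heterozygous for 2 altered alleles at the Nkx2-1 locus was compared with that of wild-type mice of the same age. The 4 Double libraries came from mice of genotype NANCI-CreERT2:RFP/+:Nkx2.1-GFP/+, which carry 1 copy of a NANCI allele with CreERT2, a Cre recombinase that tamoxifen switches on, joined to a red fluorescent protein (RFP), and 1 copy of an Nkx2-1 allele with a green fluorescent protein (GFP). The 3 WT libraries are labelled NANCI-+/+, and the labels do not state their Nkx2-1 alleles. Libraries were chosen by their age and genotype labels alone, 7 of the 22 in the series, and all 15958 genes measured at 6 months were compared. The 3 libraries of 6-month mice with the Nkx2.1-GFP/+ genotype (Nkx) entered the same model and serve as a side comparison, since they carry 1 of the 2 alleles. Per the labels' protocols, the cells were isolated by flow sorting with the gate EpCAM+, CD45-, CD31-, that is, positive for an epithelial surface protein and negative for a leukocyte and an endothelial one, and RNA was extracted with Trizol. The labels name no tamoxifen, strain, sex or pooling of animals, and do not say which part of either gene the inserted sequences replace. NANCI itself was not analysed here.

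Nkx2-1 encodes a homeodomain transcription factor that specifies the lung and thyroid buds and, in the adult lung, binds surfactant and secretoglobin genes in alveolar and airway epithelium. Alveolar type 2 (AT2) cells make surfactant and renew the flat alveolar type 1 (AT1) cells that exchange gas, while club, goblet and ciliated cells line the airway. In mice, deletion of Nkx2-1 from lung epithelium is known to bring on genes of the stomach and gut, including targets of HNF4A, and the human NKX2-1 gene is mutated in a syndrome that affects brain, lung and thyroid. NANCI is a long noncoding RNA transcribed beside Nkx2-1, and the title of the study places the pair in the buffering of Nkx2-1 expression.

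Promoter sequences of 6 genes are shown because they carry the recognition core of NKX2-1 in genes that moved in opposite directions, beside those of the altered gene and its homeobox neighbour, which do not carry it. Each is the stretch from 250 to 51 bases before the annotated start on the gene's strand, 5′ to 3′, from RefSeq on GRCm38.p6, and capitals mark CAAGTG or, on the opposite strand, CACTTG. The sites are chr12:56536959-56537158 (minus strand) for Nkx2-1, chr12:56613335-56613534 (minus) for Nkx2-9, chrX:136068287-136068486 (minus) for Bex2, chr8:119992188-119992387 (plus) for Crispld2, chr10:3540024-3540223 (plus) for Iyd and chr3:92485932-92486131 (minus) for Sprr1a.
Nkx2-1: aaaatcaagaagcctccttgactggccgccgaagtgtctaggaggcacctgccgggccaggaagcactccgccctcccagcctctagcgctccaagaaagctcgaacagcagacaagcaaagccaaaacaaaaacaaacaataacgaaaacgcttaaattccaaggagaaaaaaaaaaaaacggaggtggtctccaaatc
Nkx2-9: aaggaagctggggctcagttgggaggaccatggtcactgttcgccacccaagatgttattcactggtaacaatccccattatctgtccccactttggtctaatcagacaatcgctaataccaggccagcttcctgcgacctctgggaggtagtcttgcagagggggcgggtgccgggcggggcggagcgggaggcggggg
Bex2: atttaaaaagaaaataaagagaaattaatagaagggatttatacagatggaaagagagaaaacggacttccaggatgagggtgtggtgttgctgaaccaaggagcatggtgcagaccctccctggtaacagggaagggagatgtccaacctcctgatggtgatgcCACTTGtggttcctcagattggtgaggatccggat
Crispld2: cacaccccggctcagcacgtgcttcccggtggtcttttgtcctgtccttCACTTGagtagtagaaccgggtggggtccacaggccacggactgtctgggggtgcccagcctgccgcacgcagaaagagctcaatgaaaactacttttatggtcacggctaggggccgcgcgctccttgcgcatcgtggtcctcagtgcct
Iyd: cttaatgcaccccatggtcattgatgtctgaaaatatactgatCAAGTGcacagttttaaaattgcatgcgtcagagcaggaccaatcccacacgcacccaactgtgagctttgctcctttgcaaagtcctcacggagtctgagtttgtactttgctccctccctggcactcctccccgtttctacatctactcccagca
Sprr1a: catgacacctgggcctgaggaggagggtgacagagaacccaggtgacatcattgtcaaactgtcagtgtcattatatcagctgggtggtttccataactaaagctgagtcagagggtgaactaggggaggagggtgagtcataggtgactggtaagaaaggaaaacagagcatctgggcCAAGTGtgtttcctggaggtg

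In these letters Bex2 and Crispld2, which fell in Double, hold CACTTG beginning 85 and 201 bases before the start, and Iyd and Sprr1a, which rose, hold CAAGTG beginning 207 and 71 bases before it. Over whole promoter windows (250 bases before to 50 after the start, both strands), the core was found in 15.4% of all 27025 RefSeq genes of the table and in 13.7% of the 11530 tested genes that matched by symbol. Its share was 13.1% of the 2184 matched genes that rose (287 genes), 14.5% of the 2083 that fell (301 genes) and 13.7% of the 7263 that did not pass. A window was found for 146 of the 211 genes named by rule, and 23 of these held the core. A match describes letters in a window and does not show binding.

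The Double libraries stood far from the WT libraries. Of 15958 genes, 5795 (36.3%) differed at a limma adjusted p under 0.05: 2937 (18.4%) were higher and 2858 (17.9%) lower in Double. A difference of at least 1 on the log2 scale was met by 1154 of the higher (7.23% of all genes) and 1702 of the lower genes (10.7%), and one of at least 4 by 103 higher and 29 lower genes. The median log2 difference over all genes was 0.06. Centring the libraries on housekeeping genes shifted every difference by −0.23 and turned the split to 1422 higher and 3523 lower, so the balance of the directions depends on the scaling. Of these 20 housekeeping genes 6 rose and 3 fell in the main fit (45% called, median 0.22), so they are not a fixed reference. The 4 Double and 3 WT values did not overlap in 6394 genes (40.1%), with Double above in 3370 (21.1%) and below in 3024 (18.9%), and 5309 of these genes were among those called.

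**Figure D1:**
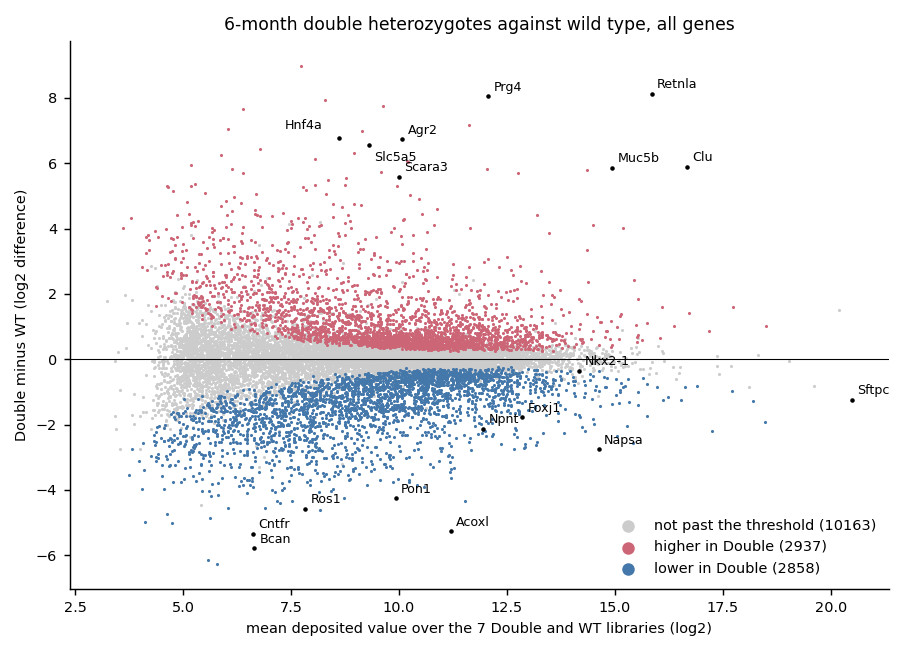
Difference between the mean of 4 Double and 3 WT libraries (y axis, log2) against the mean deposited value over the 7 libraries (x axis, log2), 1 point per gene. Red points are the 2937 genes higher and blue points the 2858 genes lower in Double at an adjusted p under 0.05, and grey points did not pass. Labelled genes are black points, with Retnla and Prg4 8.13 and 8.05 above and Acoxl 5.27 below zero.

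Pearson correlations across genes were 0.962 to 0.969 between WT libraries, 0.929 to 0.965 between Double libraries and 0.859 to 0.893 between the groups. Libraries also differed in a way the labels do not record. By Xist and Y-linked genes, WT 1 and WT 2 had a male pattern, while WT 3 and all 4 Double libraries had a female pattern, so sex and genotype partly coincide. With a term for the sex pattern 3851 genes were called (1886 higher, 1965 lower), and in the female-pattern libraries alone 2297 (1066 higher, 1231 lower). That fit holds 1 WT library, which is assumed to vary like the other groups. Counts from that fit, named as counts among female-pattern libraries, are given with a list where its more frequent direction moved by more than 1.5 times, and with some others. Of the 204 called genes named by rule, 58 were not called in that fit, among them Areg, Avpr1a, Cd68, Cd74, Csf1r, Ddc, Derl3, Egr3, Elovl6, Ereg, Fgf7, Fgf10, Insig1, Itln1, Krt6a, Krt14, Ltf, Mx1, Nkx2-9, Rtkn2, Soat1, Spred3, Tg, Trib3, Tshr, Uchl1, Wnt3a, Wnt10b, mt-Rnr1 and mt-Rnr2. Members were read against the 18.4% and 17.9% of all genes that rose or fell in the main fit. Counts from another fit belong beside that fit's own totals over all 15958 genes. Those totals were lower among female-pattern libraries, and under housekeeping centring 1422 genes rose and 3523 fell. A smaller list count in such a fit is therefore not by itself particular to the list.

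Nkx2-1 itself (ENSMUSG00000001496, chromosome 12, minus strand) was not called. Its value was 14.17, 14.55 and 14.4 in WT and 13.75, 13.97, 14.43 and 13.96 in Double libraries, a difference of −0.35 ± 0.16 (SE, adjusted p = 0.114). Double 3 lay among the WT libraries and the other 3 Double libraries below them. Without Double 3 the difference was −0.48 and passed (adjusted p = 0.0194). The labels do not say how reads from the GFP allele were counted, so this level does not check the genotypes.

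Of the 10 measured genes of the locus, 2 rose and 1 fell, with a median of −0.02. That is 30% of them, against 36.3% of all genes called in either direction. Nkx2-9, the neighbouring homeobox gene, read 3.93, 4.82 and 4.73 in WT and 7.03, 6.68, 7.91 and 6.66 in Double libraries. It was higher in every Double library, by 2.58 ± 0.53 (adjusted p = 0.00298), and was no longer called among female-pattern libraries. Mbip, whose product binds a MAP kinase kinase kinase, rose by 0.76 ± 0.21 (adjusted p = 0.014), a call lost without WT 3 and under housekeeping centring. Clec14a, an endothelial surface lectin gene that lies farther along the chromosome, fell by 3.69 ± 0.36 on the log2 scale and belongs with the endothelial genes described later. Foxa1, the pioneer factor of endoderm, differed by 0.17 ± 0.14 (adjusted p = 0.375) and Pax9, a paired-box regulator, by −1.03 ± 0.53 (adjusted p = 0.152). Mipol1, Ttc6, Brms1l and Ralgapa1 had differences of −0.19 to 0.24, none of them called. C87198, a long intergenic noncoding RNA gene that the annotation places between Nkx2-1 and Nkx2-9 and which was chosen after its values were seen, read 6.53, 6.56 and 6.66 in WT and 7.63, 7.71, 8.32 and 7.57 in Double, a rise of 1.22 ± 0.25 (adjusted p = 0.00273).

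**Figure D2:**
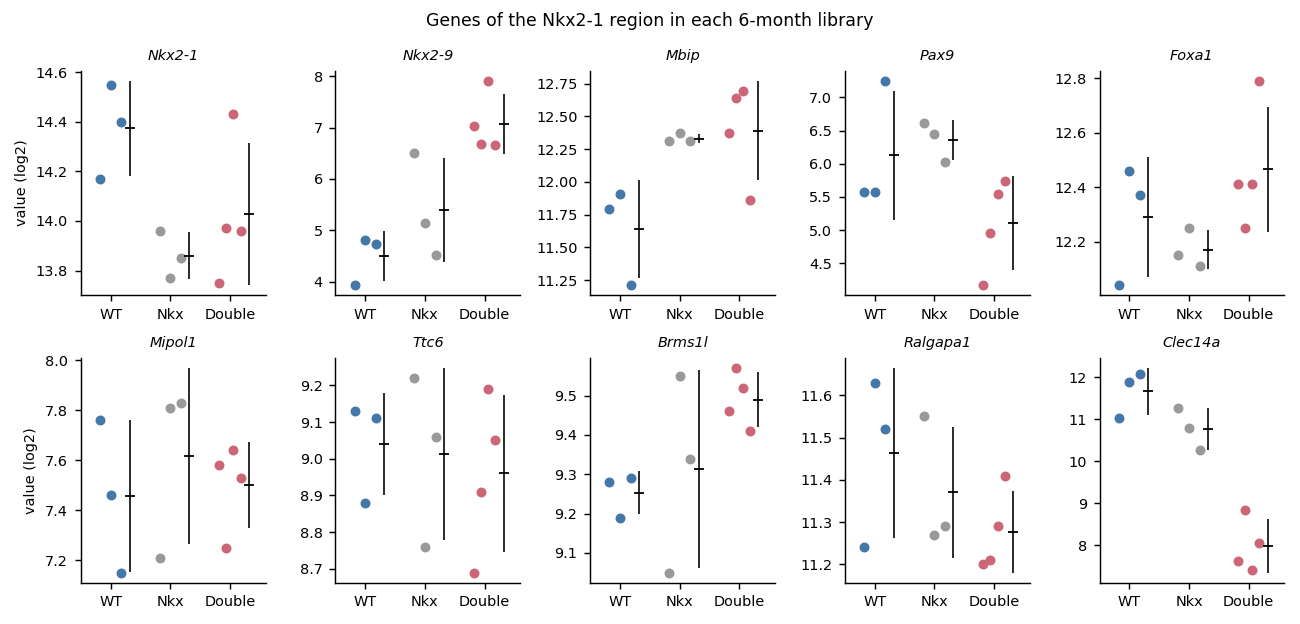
Deposited log2 values of 10 genes of the Nkx2-1 region (y axes differ by gene) in 3 WT, 3 Nkx and 4 Double libraries, 1 point per library, with bars for the mean ± SD. Nkx2-9 and Clec14a separate Double from WT, while Nkx2-1 overlaps through 1 Double library.

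AT2 genes fell. Of 41 measured members of the AT2 list 27 fell and 4 rose, with a median difference of −1.25. Acoxl, which encodes an acyl-CoA oxidase-like enzyme, read 14.38, 14.38 and 13.89 in WT and 8.21, 8.95, 9.78 and 8.84 in Double libraries, a fall of 5.27 ± 0.28 on the log2 scale or 38.5-fold (adjusted p = 6.75e-07). Napsa, the gene of the protease that matures surfactant protein B, read 16.35, 16.16 and 16.07 in WT and 12.98, 14.04, 13.74 and 13.02 in Double. It was 6.74-fold lower (−2.75 ± 0.24, adjusted p = 1.3e-05), and no Double library reached a WT library in either gene. Bex2, an X-linked adaptor gene, fell by 3.53 ± 0.3 on the log2 scale (adjusted p = 1.08e-05).

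The surfactant machinery fell with them, to unequal degrees. Slc34a2, the phosphate transporter of the AT2 apical membrane, read 18.44, 18.64 and 18.44 in WT and 15.61, 16.57, 16.82 and 16.2 in Double (−2.21 ± 0.3, adjusted p = 0.000214). Lamp3, a membrane protein of lamellar bodies, differed by −1.75 ± 0.31 (adjusted p = 0.00132), the surfactant protein gene Sftpb by −1.28 ± 0.34 (adjusted p = 0.0134), and, chosen after their values were seen, Sftpa1 by −1.92 ± 0.42 (adjusted p = 0.00418) and the lipid pump gene Abca3 by −1.26 ± 0.26 (adjusted p = 0.00277). Sftpd, chosen likewise, differed by −0.2 ± 0.27 and was not called (adjusted p = 0.613). Sftpc, the defining AT2 gene, was at the common top value of 21.19 in all WT libraries and at 18.64, 21.19, 19.74 and 20.24 in Double (−1.24 ± 0.81, adjusted p = 0.26). Every library's highest gene has that value, so the Sftpc difference is a change of rank and cannot show more. The values 20.24, 19.74 and 18.64 recur in other genes and libraries too. Normalization gave all libraries nearly the same set of values, so the values of all genes are set by rank. At the top of the scale, as for Retnla and Clu below, neighbouring ranks lie far apart, and differences and folds are coarse.

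The 4 AT2-list members that rose were Retnla, Pgc, Muc1 and Chil1. Retnla, which encodes a secreted resistin-like protein, read 11.7, 9.65 and 12.26 in WT and 20.24, 19.04, 20.24 and 17.83 in Double, 281-fold higher (8.13 ± 0.66, adjusted p = 9.19e-06). Pgc, the stomach protease precursor progastricsin, rose 19.5-fold (4.28 ± 0.41, adjusted p = 2.39e-05), and, outside the naming rule, the mucin gene Muc1 rose by 1.06 ± 0.18 and the chitinase-like gene Chil1 by 1.03 ± 0.35 (adjusted p = 0.04). Mean AT2-list values were 15.34 to 15.62 in WT and 14.12 to 14.88 in Double libraries, without overlap. Among female-pattern libraries 13 members fell and 2 rose, at a median of −1.24. In bulk RNA, fewer cells of a type and less RNA per cell cannot be told apart, here or in the lists that follow.

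**Figure D3:**
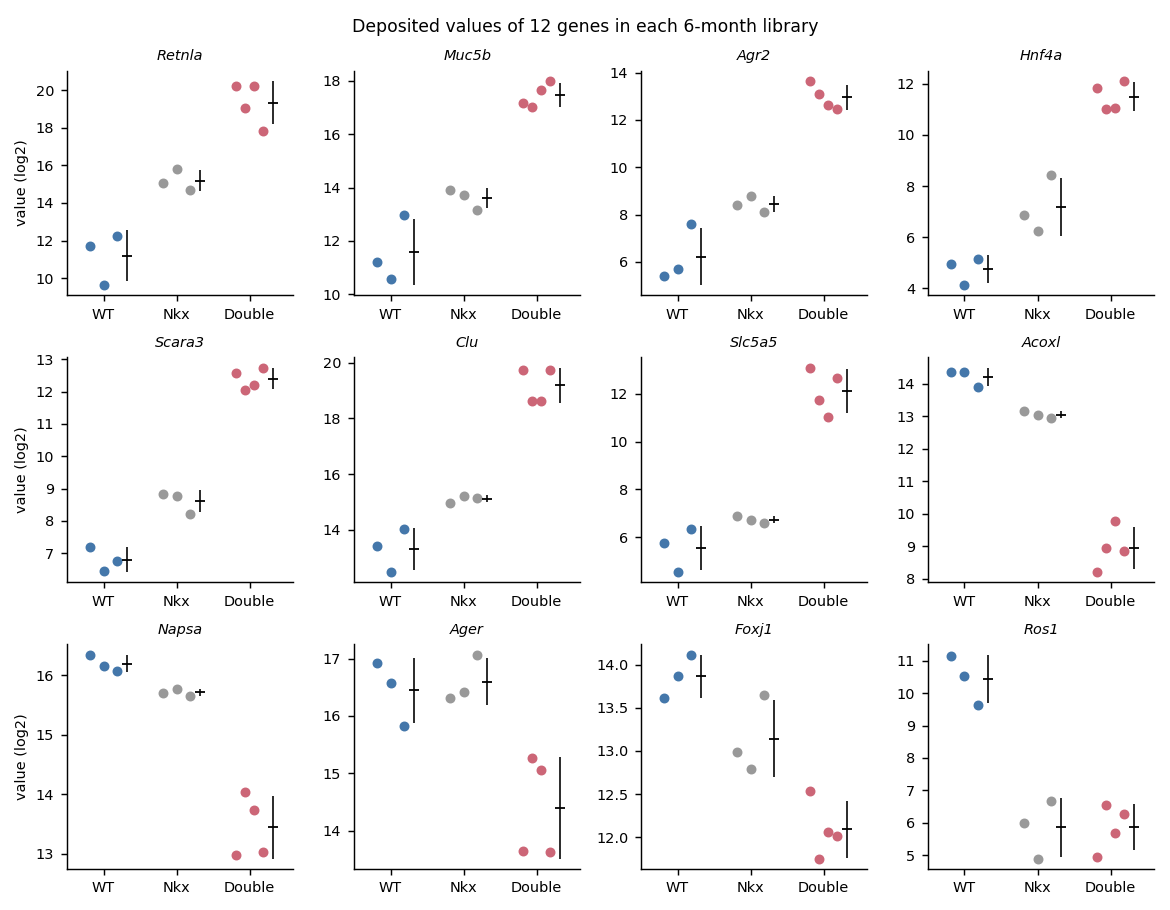
Deposited log2 values of 12 genes (y axes differ by gene) in 3 WT, 3 Nkx and 4 Double libraries, 1 point per library, with bars for the mean ± SD. Retnla, Muc5b, Agr2, Hnf4a, Scara3, Clu and Slc5a5 are highest in Double, Acoxl, Napsa, Ager and Foxj1 lowest in Double, and Ros1 is low in both mutant groups.

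AT1 genes fell in part. Of 38 measured members 20 fell and 3 rose (median −0.71). Ager, the receptor gene used to define AT1 cells, read 16.93, 16.57 and 15.83 in WT and 13.65, 15.27, 15.05 and 13.62 in Double, a difference of −2.05 ± 0.43 (adjusted p = 0.00333). Igfbp2, the gene of an insulin-like growth factor binding protein, read 12.74, 12.82 and 10.49 in WT and 7.63, 8.82, 9.02 and 7.53 in Double (−3.76 ± 0.62, adjusted p = 0.000752). WT 3 was the lowest WT library in both, and the groups did not overlap. Falls were also called in the matrix proteoglycan gene Spock2 (−3 ± 0.46), the actin regulator gene Phactr1 (−2.72 ± 0.33), the myelin protein gene Pmp22 (−2.36 ± 0.3) and Rtkn2 (−2.69 ± 0.65). The homeodomain-only gene Hopx differed by −1.26 ± 0.28 (adjusted p = 0.00498), while the water channel gene Aqp5 stayed within the spread at −0.02 ± 0.18 (adjusted p = 0.932). Among female-pattern libraries 11 members fell at a median of −0.28, and Rtkn2 was not called.

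Lipid genes that supply surfactant were lower. Of 39 genes of fatty acid synthesis and surfactant lipid 19 fell and 6 rose (median −0.68), and of 28 genes of cholesterol synthesis and uptake 19 fell and 0 rose (median −0.81). Lpcat1, the acyltransferase that makes dipalmitoyl phosphatidylcholine, read 16.27, 16.72 and 16.2 in WT and 13.35, 14.9, 14.14 and 13.79 in Double, 5.1-fold lower (−2.35 ± 0.31, adjusted p = 0.000169). The acetyl-CoA carboxylase gene Acaca fell by 1.95 ± 0.18 and the elongase gene Elovl1 by 2.08 ± 0.3, whereas the elongase gene Elovl6 rose by 1.92 ± 0.35 and the nuclear receptor gene Pparg by 1.52 ± 0.29. Among sterol genes, falls were called in the acyltransferase gene Soat1 (−1.58 ± 0.26), the kinase gene Pmvk (−1.92 ± 0.35) and the sterol sensor gene Insig1 (−1.56 ± 0.36), of which Soat1 and Insig1 were not called among female-pattern libraries. Among female-pattern libraries 9 fatty acid genes and 5 cholesterol genes fell (medians −0.38 and −0.51).

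Mucous genes rose, and secretory (club) genes rose in part. Of 33 club cell genes 16 rose and 3 fell (median 0.63), and of 26 goblet cell and mucus genes 21 rose and 1 fell (median 2.24). Muc5b, the gel-forming mucin of the mouse airway, read 11.22, 10.58 and 12.97 in WT and 17.17, 17.01, 17.66 and 18 in Double, 58.4-fold higher (5.87 ± 0.46, adjusted p = 7.07e-06). Agr2, a disulfide isomerase needed to fold mucins, read 5.4, 5.69 and 7.6 in WT and 13.65, 13.09, 12.64 and 12.44 in Double (6.73 ± 0.46, adjusted p = 2.81e-06). WT 3 was the highest WT library in both and still lay below every Double library.

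Ern2, the stress sensor of mucous cells, rose 46.5-fold (5.54 ± 0.25, adjusted p = 5.38e-07) and the trefoil factor gene Tff2 52.4-fold (5.71 ± 0.48, adjusted p = 1.06e-05). Itln1, the gene of intelectin, read 9.71, 5.69 and 10.74 in WT and 16.82, 10.28, 16.22 and 14.84 in Double (5.83 ± 1.67, adjusted p = 0.0179). Double 2 overlapped the WT values there, and the call was lost without WT 2 or Double 1. The mucin gene Muc5ac (5.02 ± 0.31) and the goblet cell regulators Spdef (2.6 ± 0.2) and Foxa3 (3.05 ± 0.43), chosen after their values were seen, were higher in every Double than in every WT library.

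The club cell list split by gene. Gsto1, a glutathione transferase gene, read 11.99, 11.66 and 12.74 in WT and 16.93, 15.96, 15.84 and 16.27 in Double, 17.4-fold higher (4.12 ± 0.28, adjusted p = 2.73e-06). Bpifa1, an airway lipid-binding defence gene, read 11.51, 13.93 and 16.61 in WT and 11.06, 8.14, 10.26 and 9.19 in Double (−4.35 ± 1, adjusted p = 0.00552), with a wide spread in WT. Pon1, a paraoxonase gene, read 12.3, 12.4 and 12.34 in WT and 8.79, 7.46, 7.57 and 8.55 in Double, 19-fold lower (−4.25 ± 0.31, adjusted p = 4.69e-06). Of the defining club genes, Cyp2f2, a cytochrome P450 gene, rose by 1.61 ± 0.42 (adjusted p = 0.0111), while the secretoglobin genes Scgb1a1 (1.52 ± 0.71, adjusted p = 0.115) and Scgb3a2 (−0.28 ± 0.34, adjusted p = 0.55) were not called. Scgb1a1 was at the top value of 21.19 in 3 Double libraries. List means for club genes were 12.55, 12.27 and 13.64 in WT 1 to 3 and 13.43 to 14 in Double. WT 3 thus lay within the Double range, and Nkx means were 13.54 to 13.92. Against Nkx the median difference of Double was 0.01, with 5 members higher and 7 lower. Among female-pattern libraries 6 club genes rose and 5 fell.

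Secreted defence genes rose with the mucous genes: 16 of 30 rose and 3 fell (median 1.07). Ltf, which encodes lactoferrin, read 9.8, 9.07 and 14.22 in WT and 18.08, 17.07, 15.23 and 16.93 in Double (5.8 ± 1.03, adjusted p = 0.00125). It was highest in WT 3 among the WT libraries and was not called among female-pattern libraries. Dmbt1, a scavenger receptor gene of mucosal secretions, rose 144-fold (7.17 ± 0.75, adjusted p = 4.17e-05). Chil4, a chitinase-like gene, read 4.74, 4.44 and 4.45 in WT and 11.69, 10.67, 10.94 and 9.46 in Double (6.14 ± 0.81, adjusted p = 0.000175), and the resistin-like gene Retnlb rose by 5.37 ± 0.89 (adjusted p = 0.000792) with 1 WT library at its lowest value. Of 36 cytokine and prostaglandin genes 13 rose and 8 fell (median 0.42), with rises in Il18 (3.72 ± 0.39), Il1rn, the interleukin-1 receptor antagonist (3.27 ± 0.39), Tnf (4.39 ± 0.69), Cxcl5 (3 ± 0.59) and Ccl20 (2.91 ± 0.58). Among female-pattern libraries 10 of these rose and 4 fell. Of 36 interferon response genes 12 rose and 2 fell (median 0.58). The synthetase genes Oas1a and Oas1g rose by 2.8 ± 0.37 and 2.79 ± 0.31, and Mx1 by 2.31 ± 0.56. The interferon list kept 7 rises under housekeeping centring and 3 among female-pattern libraries.

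Stomach, gut and liver-type genes rose. Of 35 stomach and gut genes 24 rose and 3 fell (median 2.58), and of 28 genes of liver-type plasma proteins 20 rose and 3 fell (median 1.92). Hnf4a, the nuclear receptor that directs gut and liver programmes, read 4.95, 4.13 and 5.15 in WT and 11.83, 11.01, 11.05 and 12.12 in Double, 108-fold higher (6.76 ± 0.48, adjusted p = 3.93e-06). Gif, the gene of gastric intrinsic factor, read 5.57, 4.55 and 5.95 in WT and 9.89, 11.75, 12.7 and 12.31 in Double (6.3 ± 0.57, adjusted p = 1.55e-05). Every Double library was above every WT library in both. Cldn2, a pore-forming claudin of gut epithelium, rose 17.3-fold (4.11 ± 0.2, adjusted p = 5.38e-07), and Spink1, a trypsin inhibitor gene, by 7.05 ± 0.61 with 1 WT library at its lowest value. Lgals4 (4.61 ± 0.34) and the gastric protease gene Ctse (4.76 ± 0.5), chosen after their values were seen, also rose. Gut list means were 6.12 to 6.56 in WT and 8.69 to 9.55 in Double, and in no alternative did fewer than 17 members rise. Among female-pattern libraries 18 rose and 0 fell.

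Among plasma protein genes, Apob, the structural apolipoprotein of lipoproteins, read 7.31, 5.89 and 6.97 in WT and 12.03, 12.25, 13.11 and 13.79 in Double, 67.2-fold higher (6.07 ± 0.48, adjusted p = 7.84e-06). Cfi, a complement protease gene, read 6.78, 6.45 and 7.05 in WT and 13.13, 13.18, 12.02 and 12.89 in Double (6.05 ± 0.35, adjusted p = 1.01e-06). Both separated the groups by over 4 on the log2 scale. Apoa1, the apolipoprotein of high-density particles, rose by 7.67 ± 0.77 with 2 WT libraries at their lowest value, so this fitted size depends on how a value without reads was set. Ttr, the thyroid hormone carrier transthyretin, rose by 5.29 ± 0.57 with 1 WT library at its lowest value, and Itih2, a hyaluronan-binding inhibitor chain, by 4.02 ± 0.39.

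Thyroid genes did not move together. Of 11 measured members 4 rose and 3 fell (median 0.21). Leaving out 1 library moved the median between −0.06 (without Double 2) and 0.95 (without Double 4), and 0 fell without WT 2 and 1 without WT 3. Slc5a5, the iodide transporter, read 5.76, 4.55 and 6.32 in WT and 13.09, 11.73, 11.02 and 12.64 in Double, 95.3-fold higher (6.57 ± 0.48, adjusted p = 4.75e-06). Iyd, an iodotyrosine deiodinase gene, read 7.64, 7.86 and 8.65 in WT and 11.78, 11.39, 11.26 and 11.95 in Double (3.54 ± 0.24, adjusted p = 2.73e-06), and the oxidase maturation gene Duoxa2 rose by 4 ± 0.66. The transporter and deiodinase were far above WT in all 4 Double libraries. Tg, the thyroglobulin gene, read 9.4, 10.05 and 8.88 in WT and 6.61, 8.53, 5.39 and 7.02 in Double (−2.55 ± 0.73, adjusted p = 0.0177, a call lost without WT 2). Among female-pattern libraries 4 thyroid genes rose and 0 fell. Tshr, the thyrotropin receptor, differed by −2.41 ± 0.8 (adjusted p = 0.0344), which was lost on leaving out any 1 of the WT libraries.

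Basal, squamous and keratin genes rose in part. Of 20 basal and squamous genes 11 rose and 1 fell (median 1.18), with 6 rises without WT 2 and 3 among female-pattern libraries. Krt4, a keratin of squamous mucosa, read 3.25, 1.32 and 4.73 in WT and 10.74, 8.5, 9.11 and 9.83 in Double (6.45 ± 0.73, adjusted p = 6.45e-05), with WT 2 at the lowest value of that library. Sprr1a, a cornified envelope gene, read 6.83, 6.21 and 6.37 in WT and 9.38, 9.63, 10.32 and 10.56 in Double (3.5 ± 0.3, adjusted p = 1.18e-05). No Double value fell within the WT range in either. Krt6a rose by 4.12 ± 0.98, a call lost among female-pattern libraries. Krt14, the basal cell keratin, differed by 3.66 ± 1.04 (adjusted p = 0.0169), a call lost without WT 1, WT 2 or Double 1. Spink5, a skin protease inhibitor gene, was the member that fell (−3.85 ± 0.38).

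Of 29 simple epithelial keratins and claudins 15 rose and 5 fell (median 0.66), and of 34 genes of the transitional alveolar state and p53 targets 21 rose and 4 fell (median 0.84). Clu, the secreted chaperone clusterin, read 13.4, 12.49 and 14.02 in WT and 19.74, 18.64, 18.64 and 19.74 in Double, 59.3-fold higher (5.89 ± 0.38, adjusted p = 2e-06). Tnip3, an inhibitor of NF-kappaB signalling, rose 26.7-fold (4.74 ± 0.26, adjusted p = 7.65e-07). Krt19 rose by 2.36 ± 0.21, Cldn4, a claudin of the transitional state, by 3.02 ± 0.25, and the calcium-binding gene S100a6 by 2.57 ± 0.38. Cldn5, the endothelial claudin, fell by 3.31 ± 0.32. Of the epithelial surface genes, Epcam, used in the sort, rose by 0.75 ± 0.1 (adjusted p = 0.000218), with every Double library above every WT library. Cdh1, the E-cadherin gene shared by all epithelia, differed by 0.2 ± 0.17 and was not called (adjusted p = 0.376). Among female-pattern libraries 12 transitional genes rose and 0 fell, and 1 keratin or claudin gene fell. Without WT 2 the keratins and claudins had 2 falls.

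Ciliated cell genes were lower. Of 41 measured members 36 fell and 0 rose (median −1.34), and at least 26 fell in every alternative. Foxj1, the regulator of motile cilia, read 13.62, 13.87 and 14.12 in WT and 12.54, 11.75, 12.06 and 12.01 in Double, 3.43-fold lower (−1.78 ± 0.22, adjusted p = 0.00013). Hydin, which encodes a protein of the ciliary central pair, read 11.46, 12.4 and 12.36 in WT and 9.78, 9.97, 9.69 and 10.07 in Double (−2.19 ± 0.26, adjusted p = 8.66e-05). The highest Double value lay below the lowest WT value in both. The axonemal dynein gene Dnah5 fell by 1.87 ± 0.24, Ccdc153 by 1.87 ± 0.33, the cadherin gene Cdhr3 by 1.78 ± 0.3 and Ccdc39, a defining member, by 1 ± 0.26 (adjusted p = 0.0108). Of 18 neuroendocrine genes 3 fell and 1 rose, 22.2% called against 36.3% of all genes. There were 5 falls without WT 1 and 1 without WT 2. Uchl1, a ubiquitin hydrolase gene, fell by 2.45 ± 0.56 and Ddc, a decarboxylase gene of amine synthesis, rose by 1.85 ± 0.51, and 0 members of the list were called among female-pattern libraries.

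**Figure D4:**
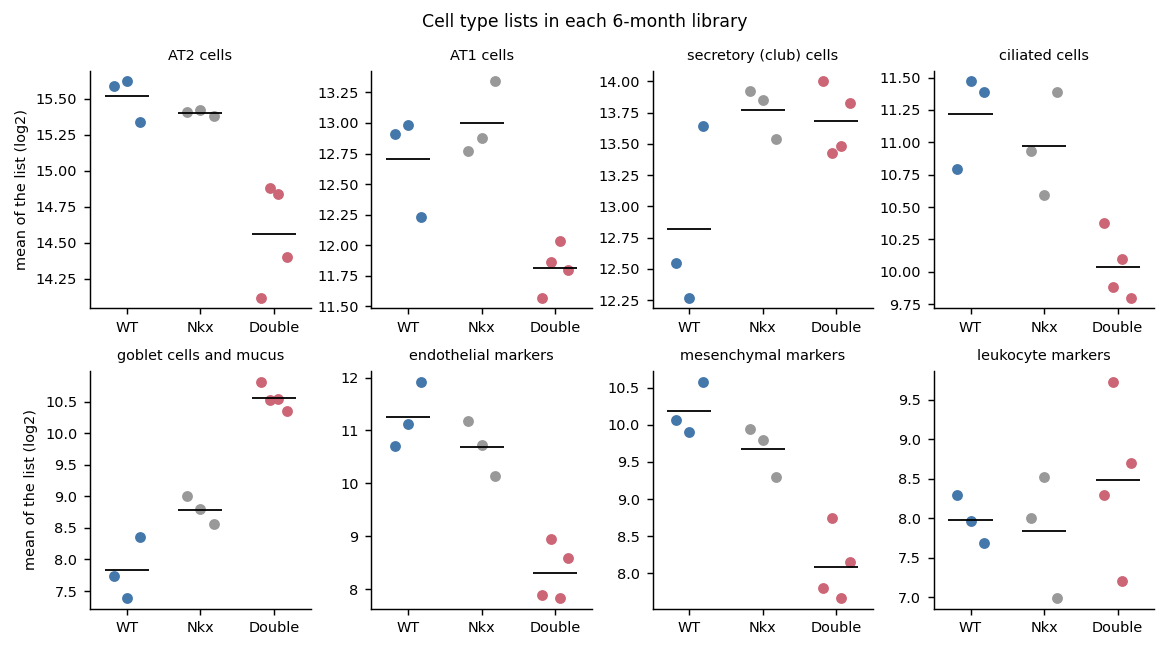
Mean deposited log2 value of the genes of 8 cell type lists (y axes differ by list) in 3 WT, 3 Nkx and 4 Double libraries, 1 point per library, with a line at the group mean. AT2, AT1, ciliated, endothelial and mesenchymal means are lowest in Double and goblet means highest, while leukocyte means overlap.

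Genes of cells that the sort was meant to leave out were present and fell steeply. All 28 endothelial markers fell (median −3.04), 22 of 27 mesenchymal markers fell and 1 rose (median −2.26), and of 39 collagens and laminins 25 fell and 0 rose (median −1.5). Pecam1, which encodes CD31, the antigen gated against, read 12.2, 12.77 and 13.52 in WT and 9.4, 10.85, 9.27 and 10.13 in Double (−2.92 ± 0.4, adjusted p = 0.000236). Plvap, a gene of endothelial diaphragms, read 12.17, 12.42 and 13.23 in WT and 8.18, 9.39, 8.58 and 8.9 in Double (−3.84 ± 0.35, adjusted p = 1.68e-05). The same separation was seen for the endothelial cadherin gene Cdh5 (−3.44 ± 0.38), the VEGF receptor gene Kdr (−2.76 ± 0.3), the TGF-beta co-receptor gene Eng (−3.75 ± 0.42) and the receptor gene Ednrb (−3.74 ± 0.48).

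In mesenchymal genes, Pdgfra, the growth factor receptor of lung fibroblasts, read 10.48, 10.99 and 11.11 in WT and 6.82, 8.26, 6.66 and 7.46 in Double (−3.56 ± 0.35, adjusted p = 2.65e-05). Falls of like size were called in Tcf21, a transcription factor of lung mesenchyme (−3.7 ± 0.31), the methyltransferase gene Inmt (−3.92 ± 0.35), the muscle filament gene Des (−3.85 ± 0.41) and the proteoglycan gene Dcn (−3.29 ± 0.41). The collagen genes Col1a1 (−2.85 ± 0.42), Col1a2 (−2.7 ± 0.44), Col4a2 (−2.72 ± 0.25) and Col13a1 (−3.18 ± 0.42) fell with them. Endothelial list means were 10.7 to 11.92 in WT and 7.84 to 8.96 in Double, and mesenchymal means 9.91 to 10.58 and 7.67 to 8.74, with no overlap. WT 3 had the highest mean of both lists. Both list means were lower in every Double than in every WT library, and the part of such cells in the falls of the other lists was not tested.

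Leukocyte markers overlapped between the groups: 3 of 27 rose and 2 fell (median 0.77), with list means of 7.69 to 8.3 in WT and 7.2 to 9.73 in Double. The highest mean was in Double 2 and the lowest in Double 3, without which 13 markers rose. The median was 0.34 without Double 2 and 0.24 with the sex covariate, and among female-pattern libraries 1 marker rose and 0 fell. Ptprc, which encodes CD45, read 7.36, 8.44 and 7.57 in WT and 7.87, 9.01, 5.9 and 8.16 in Double (adjusted p = 0.956), and Cd53 and Tyrobp were not called (adjusted p = 0.279 and 0.143). Cd14, an endotoxin co-receptor gene that epithelia also express, rose by 2.7 ± 0.27 and the lysosomal gene Cd68 by 1.64 ± 0.34, while the receptor gene Csf1r fell by 1.16 ± 0.19. Of 15 genes of the MHC class II list 7 fell and 0 rose (median −0.51). The falls included the invariant chain gene Cd74 (−1.16 ± 0.28) and Cd83 (−2.3 ± 0.32), which is not itself a class II gene. The class II count was 3 without WT 2 or WT 3, 4 without Double 4 and 1 among female-pattern libraries. Of 13 mesothelial and uroplakin genes 5 fell and 3 rose, among them the defining gene Upk3b (−3.21 ± 0.62), the glycoprotein gene Gpm6a (−3.12 ± 0.43) and Upk2 (3.16 ± 0.48). The other defining mesothelial genes did not follow Upk3b: Msln, the mesothelin gene, rose by 2.16 ± 0.41 (adjusted p = 0.00172) and Wt1 differed by −0.54 ± 0.47 (adjusted p = 0.398).

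Regulators of lung development went both ways, with 12 of 51 higher and 15 lower (median −0.23). The T-box genes Tbx3, Tbx4 and Tbx5, known from lung mesenchyme, fell by 3.5 ± 0.4, 3.3 ± 0.35 and 3.05 ± 0.65, and Sox17, an endothelial and airway factor, by 2.57 ± 0.39. Mycn, the growth regulator of embryonic lung tips, read 3.93, 5.89 and 5.56 in WT and 8.29, 7.52, 7.16 and 8.88 in Double (2.83 ± 0.54, adjusted p = 0.00193). All Double libraries were above WT in this gene. Among female-pattern libraries 6 regulators rose and 10 fell.

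FGF signalling genes were lower: 15 of 28 fell and 1 rose (median −0.78), with 5 falls among female-pattern libraries. By role, the ligand genes Fgf10 and Fgf7, made by mesenchyme, fell by 3.06 ± 0.51 and 2.36 ± 0.51 and the receptor gene Fgfr4 by 4.05 ± 0.46, with 1 Double library at its lowest value in Fgf10. Etv5, the target gene of FGF signalling that maintains AT2 cells, read 14.16, 14.93 and 14.1 in WT and 11.09, 12.48, 12.71 and 11.65 in Double (−2.41 ± 0.35, adjusted p = 0.000337). The inhibitor gene Spred3 fell by 2.31 ± 0.45.

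Wnt pathway genes fell in 19 of 47 cases and rose in 5 (median −0.58), with 10 falls among female-pattern libraries. The ligand genes Wnt3a and Wnt10b fell by 3.87 ± 0.61 and 5 ± 0.88, the latter with 2 Double libraries at their lowest value. Both calls were lost among female-pattern libraries. Wnt10a rose by 3.71 ± 0.74. The receptor gene Fzd7 read 11.88, 12 and 11.76 in WT and 8.77, 9.69, 9.45 and 9.3 in Double (−2.58 ± 0.19, adjusted p = 5.35e-06), and the secreted Dkk3 fell by 2.54 ± 0.5. In the BMP and TGF-beta list 9 of 43 rose and 11 fell (median −0.01), 46.5% called against 36.3% of all genes. Among the falls were the ligand gene Bmp6 (−3.12 ± 0.37) and the pseudoreceptor gene Bambi (−2.09 ± 0.19). Among female-pattern libraries 5 of that list rose and 6 fell. Of 31 Notch genes 12 fell and 3 rose (median −0.5). Falls were called in the receptor gene Notch4 (−2.9 ± 0.35), the target gene Hey1 (−3.11 ± 0.31), its relative Hes2 (−4.01 ± 0.42) and the glycosyltransferase gene Mfng (−2.11 ± 0.33). Among female-pattern libraries 10 Notch genes fell and 1 rose. Notch4, Hey1 and Bmp6 are known from endothelium, whose markers moved with them, and the part of those cells was not tested.

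Cell cycle genes rose in 30 of 50 cases and fell in 2 (median 1.09). Plk1, a mitotic kinase gene, read 6.02, 7.11 and 6.6 in WT and 10.48, 9.84, 10.53 and 10.66 in Double, 13.9-fold higher (3.8 ± 0.29, adjusted p = 5.35e-06). The spindle gene Kif23 rose by 2.28 ± 0.31 and the survivin gene Birc5 by 2.55 ± 0.6. Mki67, the proliferation marker, read 8.1, 9.71 and 7.08 in WT and 10.68, 10.37, 10.84 and 9.58 in Double (2.07 ± 0.63, adjusted p = 0.0241). Its groups overlapped through WT 2, and its call was lost without WT 1, WT 3, Double 1 or Double 3. The list count was 13 without WT 3, 18 without Double 1, 19 without Double 3 and 18 under housekeeping centring.

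Of 38 unfolded protein response genes 18 rose and 3 fell (median 0.36), with rises in Sdf2l1 (1.69 ± 0.16) and Derl3 (1.91 ± 0.45), both acting in the endoplasmic reticulum, and falls in Ppp1r15a (−1.64 ± 0.2) and Trib3 (−1.38 ± 0.36), genes of the stress response. Of 28 apoptosis and senescence genes 12 rose and 4 fell, including a rise of the death agonist gene Bid (2.12 ± 0.21). Immediate early genes, which cells induce within minutes of handling, fell in 18 of 32 cases and rose in 2 (median −0.81), with Egr3 at −3.12 ± 0.68 and Klf2 at −2.03 ± 0.2. Under housekeeping centring 7 apoptosis genes rose. Among female-pattern libraries the counts were 6 rises for the unfolded protein response, 6 for apoptosis and 3 falls for immediate early genes. Respiratory chain genes rose in 18 of 44 cases and fell in 0 (median 0.44), with 30 rises without Double 4, 8 under housekeeping centring and 1 among female-pattern libraries. Cytosolic ribosomal protein genes gave 1 rise in 55 (median 0.12), 4 rises without Double 3 or Double 4, and 2 falls with 0 rises (median −0.1) under housekeeping centring.

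**Figure D5:**
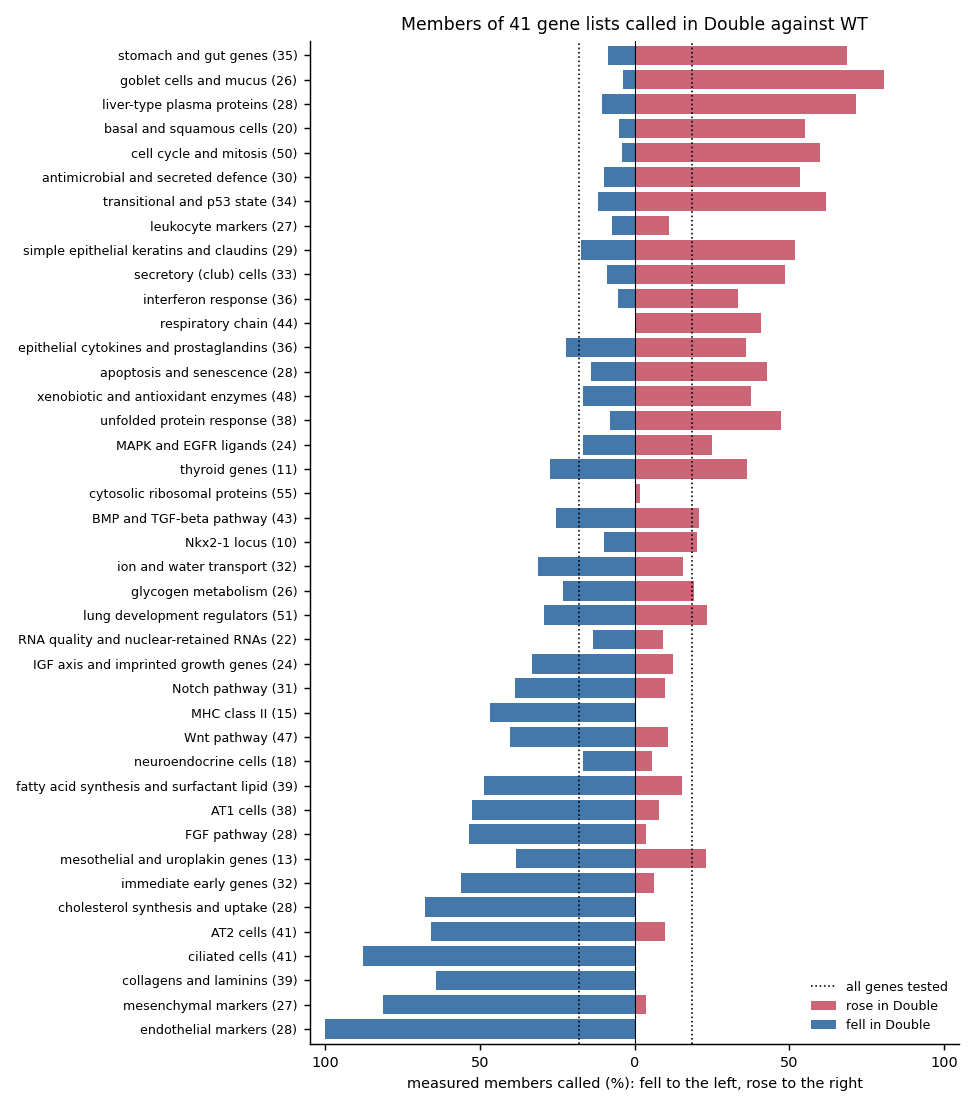
Share of measured members of 41 gene lists (number measured in brackets) that rose (red, right) or fell (blue, left) in Double against WT, in percent. Dotted lines mark the share of all genes tested that rose (18.4%) or fell (17.9%). Stomach, goblet and liver-type lists lie to the right and endothelial, mesenchymal and ciliated lists to the left.

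Among 48 xenobiotic and antioxidant genes 18 rose and 8 fell (median 0.36, with 7 rises among female-pattern libraries). Cyp1a1, the inducible cytochrome P450 gene, read 8.37, 8.41 and 7.78 in WT and 3.81, 4.01, 4.09 and 4.17 in Double, 17.9-fold lower (−4.16 ± 0.33, adjusted p = 7.72e-06). Gpx3, the secreted glutathione peroxidase gene, was 12.9-fold lower (−3.69 ± 0.24, adjusted p = 2.2e-06), and the carbonyl reductase gene Cbr3 rose by 2.31 ± 0.2. Both groups were tight in these genes. The Double values of Cyp1a1 lay not far above the lowest values of those libraries (2.22, 1.16, 2.85 and 1), so its spread and fold are uncertain. Of 32 ion and water transport genes 5 rose and 10 fell, among them the water channel gene Aqp1 (−3.34 ± 0.41), also an endothelial gene, and the potassium channel subunit gene Kcne3 (4 ± 0.6). Of 26 glycogen genes 5 rose and 6 fell, 42.3% called against 36.3% of all genes. Of 24 genes of the IGF axis 8 fell and 3 rose, with Igfbp4 (−3.1 ± 0.34) and Igfbp3 (−2.44 ± 0.32) among the falls. Of 24 MAPK and EGFR ligand genes 6 rose and 4 fell, 41.7% called against 36.3% of all genes. The rises included the EGFR ligand genes Ereg (4.05 ± 0.85) and Areg (1.69 ± 0.33). Among female-pattern libraries 3 ion transport genes rose and 5 fell, 3 glycogen genes rose and 2 fell, 1 IGF axis gene rose and 6 fell, and 1 MAPK gene rose and 1 fell. In 22 RNAs that mark RNA quality or nuclear retention, 2 rose and 3 fell (median −0.26), with differences of −1.64 ± 0.24 in mt-Rnr2 and −0.69 ± 0.14 in mt-Rnr1, the mitochondrial ribosomal RNAs. The median was −0.53 with 5 falls without Double 3 and −0.02 without Double 4, and among female-pattern libraries 1 fell and neither ribosomal RNA was called. Their part in the other differences was not tested.

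Outside these lists, the largest rises by rule included Prg4, the gene of the joint lubricant lubricin, which read 6.83, 6.87 and 8.67 in WT and 15.73, 14.67, 15.15 and 16.47 in Double, 265-fold higher (8.05 ± 0.49, adjusted p = 1.53e-06). Syt8, a synaptotagmin gene, read 3.25, 2.85 and 5.15 in WT and 12.64, 11.38, 11.1 and 11.61 in Double (7.93 ± 0.6, adjusted p = 5.62e-06). Psca, a surface antigen gene of stomach and prostate epithelium, rose 217-fold (7.76 ± 1.07, adjusted p = 0.000233). Prg4 and Syt8 separated the groups by over 5 on the log2 scale. Pla2g4c, a cytosolic phospholipase gene, read 5.57, 4.55 and 5.33 in WT and 12.12, 11.82, 13.04 and 11.55 in Double (6.98 ± 0.35, adjusted p = 5.38e-07). Sprr2a3 had the highest fitted difference (8.99 ± 0.89), but 2 WT libraries were at their lowest value and its near-identical copies may share its reads, so the value is uncertain.

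The largest falls by the naming rule, which leaves out gene models, were led by Bcan, which encodes the proteoglycan brevican of brain matrix and read 10.47, 10.26 and 9.1 in WT and 3.81, 4.56, 5.39 and 2.85 in Double, 55.4-fold lower (−5.79 ± 0.57, adjusted p = 2.74e-05). Cntfr, the receptor gene of ciliary neurotrophic factor, read 9.68, 9.75 and 9.57 in WT and 4.63, 3.05, 5.19 and 4.45 in Double (−5.34 ± 0.43, adjusted p = 9.09e-06). Mrc2, a collagen-binding lectin gene (−4.63 ± 0.42), and Crispld2, a secreted gene of lung mesenchyme (−4.57 ± 0.38), were also lower. The phosphatase inhibitor gene Ppp1r1a (−4.87 ± 0.59), the vasopressin receptor gene Avpr1a (−4.34 ± 0.77) and the sulfotransferase gene Chst2 (−4.19 ± 0.57) were lower too, with 1 Double library at its lowest value in Ppp1r1a and in Chst2. So were Fam178b (−4.4 ± 0.56) and the cytochrome oxidase subunit gene Cox6a2 (−4.35 ± 0.66). The difference in Vcp-rs (−4.25 ± 0.73) is uncertain, since this sequence is a near-copy of Vcp.

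The smallest adjusted p-values picked out changes with little spread. Scara3, a scavenger receptor gene, read 7.2, 6.45 and 6.76 in WT and 12.59, 12.04, 12.21 and 12.74 in Double, 48.1-fold higher (5.59 ± 0.23, adjusted p = 5.2e-07). Npnt, the gene of the basement membrane protein nephronectin, read 13.04, 13.25 and 13.2 in WT and 11.06, 10.97, 10.94 and 11.17 in Double, 4.38-fold lower (−2.13 ± 0.1, adjusted p = 5.38e-07). Within-group ranges were small beside the gap in both. The heparanase gene Hpse rose by 3.36 ± 0.16 and the phosphatase-like gene Ptprn2 by 2.96 ± 0.15, while the sialyltransferase gene St6galnac6 (−3.67 ± 0.18), Klhl29 (−3.75 ± 0.18) and Phf24 (−3.21 ± 0.16) fell, each at an adjusted p of 5.38e-07.

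Esr1, the estrogen receptor gene, was chosen after its values were seen because CreERT2 carries a mutated ligand-binding domain of the human estrogen receptor. It read 6.61, 4.95 and 5.95 in WT libraries, 5.15, 5.52 and 6.4 in Nkx libraries, and 8.35, 8.41, 8.5 and 8.66 in Double. Double libraries, the sole group here with the CreERT2 allele, were higher than WT by 2.64 ± 0.41 (adjusted p = 0.000506) and higher than Nkx by 2.79 (adjusted p = 0.00087), and Nkx and WT overlapped. Whether reads of the transgene were counted in Esr1 was not tested.

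The side comparisons share libraries with the main one, so their values are set side by side only. Against Nkx, 3460 genes (21.7%) were called in Double, 1629 higher (10.2%) and 1831 lower (11.5%), and among female-pattern libraries 1998 (925 higher, 1073 lower). In Nkx against WT 419 genes (2.63%) were called, 242 higher (1.52%) and 177 lower (1.11%). That count rests on the setting, with 4 calls among female-pattern libraries, 1192 with library weights, 59 without WT 2, and a split of 62 higher and 349 lower under housekeeping centring. Ros1, an orphan receptor tyrosine kinase gene of AT2 cells, read 11.14, 10.53 and 9.64 in WT libraries, 5.99, 4.89 and 6.67 in Nkx libraries, and 4.94, 6.54, 5.68 and 6.27 in Double libraries. Nkx and Double overlapped in full (0.01 between them, adjusted p = 0.991), and both lay below WT (−4.59 in Nkx with adjusted p = 0.0029, −4.58 ± 0.51 in Double with adjusted p = 5.54e-05). Ppp1r3a, a glycogen-targeting phosphatase subunit gene, was close to this, with 4.74, 6.56 and 5.79 in WT libraries, 10.15, 10.52 and 9.77 in Nkx libraries, and 11.11, 10.81, 11.07 and 11.08 in Double (Double minus Nkx 0.87, adjusted p = 0.0914).

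Other genes followed other orders. Retnla read 15.07, 15.8 and 14.71 in Nkx, between WT and Double, and differed from each (4.15 above Nkx with adjusted p = 0.00148, and 3.99 from WT to Nkx with adjusted p = 0.02). Hnf4a read 6.88, 6.25 and 8.45 in Nkx and Agr2 8.42, 8.77 and 8.1, both between the other groups and called in both steps (adjusted p = 0.0339 and 0.0416 for Nkx against WT). Prg4 read 7.66, 7.64 and 8.61 in Nkx, within the WT range, and was 7.53 higher in Double than in Nkx (adjusted p = 1e-05). Ptprn2 read 8.3, 8.46 and 8.52 in Nkx, overlapping WT, and was 2.86 lower there than in Double (adjusted p = 7.66e-06). Acoxl read 13.16, 13.03 and 12.96 in Nkx, below WT without a call (adjusted p = 0.0678), and Double lay 4.1 lower still (adjusted p = 1.23e-05). The difference of Double from Nkx was −4.5 in Igfbp2, −4.34 in the cystatin gene Cst8 and −3.88 in the proteoglycan gene Ogn.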

How the data were processed

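Gene expression was measured by RNA sequencing, 1 library per sample. The authors deposited quantile-normalized log2 values, per the file headers and values (median SD between libraries at equal rank 0.00242, lowest value 1, highest 21.19). The lowest value in a library was taken as 0 reads, which is inferred. It differed by library, from 1.16 to 1.48 in WT and from 1 to 2.85 in Double. Folds of genes with low values in 1 group, such as Slc5a5, Gif and Syt8, are therefore uncertain in size. The submitters' processing notes name the aligner STAR, limma and the build mm9. Depth is unknown, and values are not per length, so levels were not compared between genes. The number of distinct values at or below the median, a stand-in for depth, was 128 to 382.

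All 15958 genes were tested with limma 3.58.1 (R 4.3.3, trend) in 1 fit over 10 six-month libraries, with no filter, no covariate and Benjamini-Hochberg adjustment, two-sided, at 0.05. Errors are SE of the difference. Values are log2 throughout, and folds were computed from the differences. Symbols matched for 15353 IDs (96.2%, GENCODE M21). The fit was tested on simulated data. Nothing in the labels ties replicates to separate animals; p-values reflect the spread of these libraries, which may be technical.

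The members and lists were chosen with earlier results of these data known. Named by rule were the measured locus genes, the 15 strongest rises and 15 strongest falls (mean of 5 or more, called, not a clone or gene-model symbol, not Y-linked, Xist or Tsix), up to 5 passing genes by size per list, the 10 smallest adjusted p-values and the 5 largest changes against Nkx in each direction. Defining cell type markers were added.

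Replicate numbers were not used as pairs, and 0 columns were left out. Alternatives covered the fit, filter, block, sex pattern, depth, scaling, weights and each replicate. Some genes the rule names are not reported here.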

Additional observations from a re-analysis of the deposited data

Results flagged for a closer look

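Dixon's ratio was tested in the 4 Double libraries for 252 items, the 211 genes named by rule and the means of the gene lists. The ratio is the gap of 1 library to its nearest neighbour as a share of the group's range. It was above Dixon's critical value in 12 items (4.76%), all of them genes. Chance gives about 1 in 20. Double 2 stood apart in 5 genes: it was lowest in Vcp-rs (5.57, the others 7.2 to 7.46), Ppp1r3a (10.81, the others 11.07 to 11.11) and Ptprn2 (10.93, the others 11.39 to 11.41), and highest in the lysosomal gene Cd68 (11.06, the others 9.59 to 9.64) and St6galnac6 (7.56, the others 7.16 to 7.22). Double 4 stood apart in 5 genes: it was lowest in Tshr (1.16, the others 4.09 to 4.45), Retnlb (4.94, the others 8.08 to 8.71) and Mx1 (7.75, the others 7.97 to 8.01), and highest in Cldn2 (10.25, the others 9.86 to 9.87) and the transcription factor gene Klf4 (10.96, the others 10.17 to 10.26). Double 1 was lowest in Crispld2 (3.81, the others 5.19 to 5.39) and Double 3 in Itih2 (10.65, the others 11.86 to 12.02).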

How the results depend on the processing

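With a sex pattern covariate 3851 genes were called between Double and WT (1886 higher). The female-pattern libraries alone gave 2297 (1066 higher, 1231 lower), and those of the 2 groups alone, 4 against 1, gave 1657 (758 higher, 899 lower). Housekeeping centring gave 1422 higher. The fit of female-pattern libraries of the 2 groups and the test of autosomal genes were chosen after seeing the data. Leaving out 1 replicate gave 4445 (without WT 2) to 5727 calls, with 2195 to 2924 higher and 2215 to 2809 lower. The other alternatives stayed within 1.5 times of the count, and the fitted sign was kept in all called genes tested in each, but for 1 gene in each female-pattern fit.

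Replicate numbers did not pair the libraries: same-numbered libraries correlated at −0.061, −0.103 and 0.128 in their deviations. With the replicate block 5072 genes were called between Double and WT, 2285 between Double and Nkx and 131 between Nkx and WT.

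Double against Nkx gave 2204 (without Nkx 1) to 3492 calls with 1 replicate left out and 1998 in the female-pattern libraries. Nkx against WT gave 98 without the mean-variance trend, 228 with the sex covariate 1192 with library weights and 4 in the female-pattern libraries. It gave 59 (without WT 2) to 211 (without WT 3) with 1 WT or Nkx library left out, and 327 to 478 with 1 Double library left out, which enters through the shared spread. For these 2 comparisons, centring, weights, female-pattern libraries and leaving out the third group's libraries were added after seeing the data. With 1 replicate left out, the difference of Nkx2-1 ranged from −0.48 (without Double 3, where it passed) to −0.26. Housekeeping centring shifted it by −0.23 from the main fit, as it did every difference. Small uncalled differences changed sign for Foxa1 (−0.05) and Mipol1 (−0.18) under housekeeping centring, and on leaving out 1 replicate for Mipol1 (−0.11 without WT 3 to 0.19) and Ttc6 (−0.16 to 0.01 without Double 1). The causes were not tested. Of 204 named genes called, 130 (female-pattern libraries of the 2 groups) to 204 kept the call and none changed sign. Precision is limited by 3 and 4 libraries, and differences of genes near the lowest value depend on how 0 reads were set.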
